A study of Homo sapiens with 6 samples.

Results

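The genes described here encode surface antigens by which B-cell precursor leukaemia is typed or treated. They are CD22, MME (the antigen CD10), CD24, CD34, CD38, CD9, MS4A1 (the antigen CD20), FLT3 and TNFRSF13C (the BAFF receptor). They were picked by symbol, all 9 have a row among the 26364 genes of the authors' deposited table, and 7 are among the 12061 genes that have an adjusted p there and are called tested. The table compares REH cells that carry a lentiviral short hairpin RNA against STAT3 (shSTAT3, 3 libraries) with REH cells that carry a scramble hairpin (3 libraries). REH is an established human B-cell precursor acute lymphoblastic leukaemia line with the ETV6-RUNX1 fusion. Cells of both groups spent 3 days in puromycin to select those with a hairpin and were cleared of dead cells before total RNA was taken, and the 3 replicates of each group came from independent experiments. All cells derive from this single line, and neither the sequence nor the number of hairpins is given in the sources used here.

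A leukaemic B-cell precursor is recognised by a mix of stem cell, early lymphoid and B-lineage surface proteins. CD34 and FLT3 mark early progenitors, MME and CD24 mark the precursor stage, CD22 and CD38 are carried through much of the lineage, and MS4A1 and TNFRSF13C appear as B cells mature. Several of these proteins are bound by therapeutic antibodies, antibody conjugates or engineered T cells, or, in the case of FLT3, are blocked by kinase inhibitors, so the amount on the cell surface matters for treatment. The values here are transcript levels in bulk RNA, in which fewer cells with a transcript and less transcript per cell cannot be told apart, and surface protein was not analysed here.

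For each gene the table holds the mean normalized count over all 6 libraries and DESeq2's log2 fold change, p-value and adjusted p, with no value per library. A gene is called when the deposited adjusted p is under 0.05. Group levels given below are those implied by the mean and the fold change. Very low genes have fold changes near 0, as in a shrunken estimate. Implied levels, folds and percentages of scramble can therefore understate a difference, above all at low counts or where a fold change is imprecise. The size factors behind the lowest means spanned 0.935 to 1.13, and a library summed to 11485068 normalized counts on average. Of the reads of surface antigens near 0, 1 of the 6 libraries, which carries no label in the table, held 30.4%, and no result could be given without it. That library also has the highest size factor, and 27 of its 78 such reads are of the gene CD44 alone. The targeted gene, STAT3, had 29.8% of its scramble level in shSTAT3 cells in the authors' deposited table (DESeq2 adjusted p = 7.78e-74). Since the table does not say which group is the numerator, negative values were read as lower in shSTAT3 because of STAT3 itself, which is therefore no separate check of the labels. Of the 13 genes fixed as a check of B-cell precursor identity, 12 were tested, with PAX5 at a mean of 10140, DNTT at 16549 and CD79A at 7536 in the authors' deposited table, while VPREB1 is listed at 0.

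In shSTAT3 cells TNFRSF13C was higher, by 1.87-fold, and CD9 and CD22 were lower, with 42.0% and 81.6% of their scramble levels, according to the authors' deposited table. The other 4 tested genes, CD24, CD38, MME and FLT3, were not called, and CD34 and MS4A1 had too few reads to be tested. Among all tested genes 44.5% were called, 21.3% higher and 23.2% lower. The share called here, 3 of 7 or 42.9%, lies near that background. CD9 and TNFRSF13C changed by at least 1.5-fold, as did 10.4% of tested genes downward and 6.96% upward. The median log2 fold change of the 7 was −0.23, against 0.0027 for all tested genes.

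**Figure D1:**
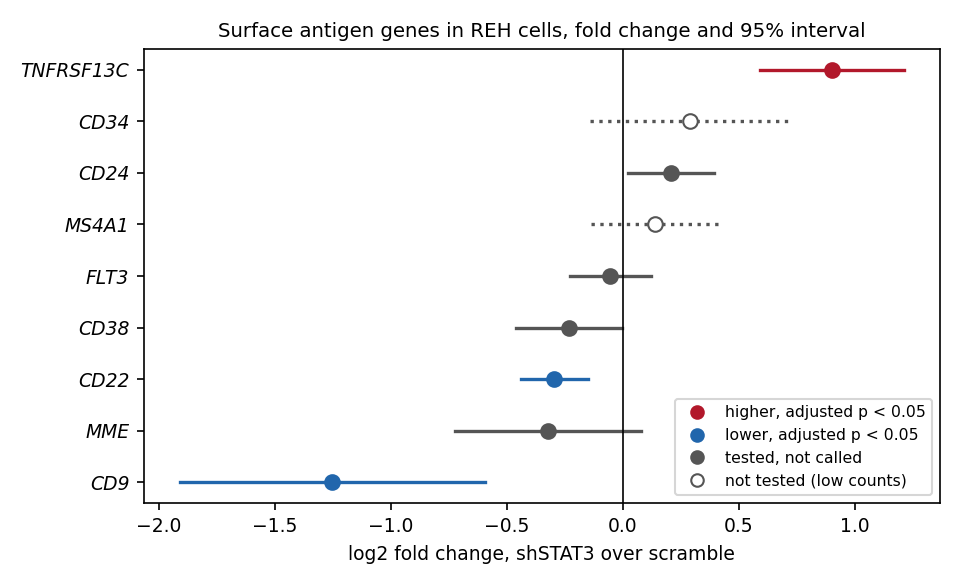
Log2 fold change of each of the 9 surface antigen genes (points) with its 95% interval (lines), shSTAT3 over scramble, from the deposited comparison of 3 libraries with 3; dotted lines mark the genes too low to be tested. TNFRSF13C lies to the right of 0 at 0.90, CD22 and CD9 lie to the left at −0.29 and −1.25, and the interval of CD9 is the widest.

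CD22 is a B-lineage lectin that binds sialic acid and dampens signals of the B-cell receptor, and it is the target of the conjugate inotuzumab ozogamicin. It lies on the plus strand of chromosome 19 from 35319261 to 35347355 (GRCh38, GENCODE release 29). Scramble cells had an implied 2899 normalized counts and shSTAT3 cells 2364, around a mean of 2631. CD22 fell by 0.29 log2 units in the authors' deposited table (95% interval −0.44 to −0.15, adjusted p = 0.00031). The interval runs from 73.8% to 90.2% of scramble, so the fall is called but small. Its standard error of 0.074, which is the fold change over the normal quantile that its p-value stands for, was near the median of 0.077 for the 200 tested genes closest in mean.

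MS4A1, the four-pass membrane protein to which rituximab binds, had almost no reads. Its mean in the authors' deposited table is 0.516, which resolves into 3 reads over the 6 libraries, in 2 of them. No change in MS4A1 is detectable at this depth, and its deposited row holds a p-value (0.326) but no adjusted p. MS4A1 lies on the plus strand of chromosome 11 from 60455752 to 60470760. Of 11 other genes of the MS4A family and its TMEM176 relatives, 2 were tested and neither was called, MS4A7 at a log2 fold change of −0.26 and MS4A4A at −0.09 in the authors' deposited table (DESeq2 adjusted p = 0.537 and 0.841), and 4 are listed at 0.

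FLT3, the receptor tyrosine kinase of early progenitors, was well expressed and had the fold change nearest 0 of the 9 genes. Its implied level was 1600 normalized counts in scramble and 1542 in shSTAT3 cells. The log2 fold change was −0.05 in the authors' deposited table (95% interval −0.23 to 0.12, adjusted p = 0.665). The interval leaves room for levels from 85.3% to 109% of scramble. The standard error of FLT3 was 0.090, against a median of 0.082 for the 200 tested genes closest in mean, of which 45 had a wider one. The median of all tested genes was 0.124. FLT3 lies on the minus strand of chromosome 13 from 28003274 to 28100592.

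MME, a zinc peptidase and the common acute lymphoblastic leukaemia antigen, had the second highest level of the 9 genes. Implied counts were 6917 in scramble and 5532 in shSTAT3 cells, 80.0% of scramble. This log2 fold change of −0.32 is slightly further from 0 than that of CD22, yet it was not called in the authors' deposited table (95% interval −0.72 to 0.08, adjusted p = 0.196). The standard error of MME was 0.205, or 2.91 times the median of the 200 tested genes closest in mean, and only 2 of those 200 had a wider one. Counting error alone would give about 0.015 at this level. MME lies on the plus strand of chromosome 3 from 155024124 to 155183729, and the antisense gene MME-AS1, which has no row in the table under that name, shares 214 exon bases with it, so reads of the 2 cannot be told apart unless strand was used in counting.

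CD24, a small glycan-rich protein anchored by lipid, was the most abundant of the 9 transcripts, with an implied 10387 normalized counts in scramble and 12003 in shSTAT3 cells. Its log2 fold change of 0.21 was not called in the authors' deposited table (95% interval 0.02 to 0.39, p = 0.0274, adjusted p = 0.0597). The unadjusted interval does not reach 0, while the adjusted p is above 0.05. With the running median of genes of like mean taken off, the log2 fold change of CD24 was 0.11 (Benjamini-Hochberg adjusted p = 0.377 from the implied standard errors). GENCODE lists 3 processed pseudogenes of CD24 and the table none, so its count depends on how shared reads were placed. CD24 lies on the minus strand of chromosome 6 from 106969831 to 106975627.

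CD38, a surface enzyme that consumes NAD and the target of daratumumab, gave a similar picture in the other direction. Its implied level was 732 normalized counts in scramble and 624 in shSTAT3 cells, and its log2 fold change was −0.23 in the authors' deposited table (95% interval −0.46 to −0.0028, p = 0.0472, adjusted p = 0.0946). CD38 was not called, but it was called when the running median of genes of like mean was taken off the fold changes (Benjamini-Hochberg adjusted p = 0.0341 from the implied standard errors). It lies on the plus strand of chromosome 4 from 15778275 to 15853230.

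CD34, a sialomucin of stem and progenitor cells, had 8 reads over the 6 libraries, in 4 of them, and a mean of 1.35 in the authors' deposited table. Its row gives a log2 fold change of 0.29 and an unadjusted p-value (0.187). At 1 to 3 reads in each library that has any, no difference is detectable. CD34 lies on the minus strand of chromosome 1 from 207880972 to 207911402.

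CD9, a tetraspanin that organises other membrane proteins and is read in leukaemia typing, had the largest change of the 9 genes. The level implied by the table was 215 normalized counts in scramble and 90.4 in shSTAT3 cells. CD9 fell by 1.25 log2 units in the authors' deposited table (95% interval −1.91 to −0.60, adjusted p = 0.000762), and 1.18% of tested genes had a lower fold change. Its interval, from 26.6% to 66.2% of scramble, is wide. The standard error of 0.335 was 1.96 times the median of the 200 tested genes closest in mean, none of which had a wider one, and it lies at the upper end of all tested genes, where the highest is 0.335. In a shrunken estimate so imprecise a value is drawn further toward 0, so the implied levels and interval of CD9 can understate its fall. CD9 lies on the plus strand of chromosome 12 from 6199715 to 6238271.

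**Figure D2:**
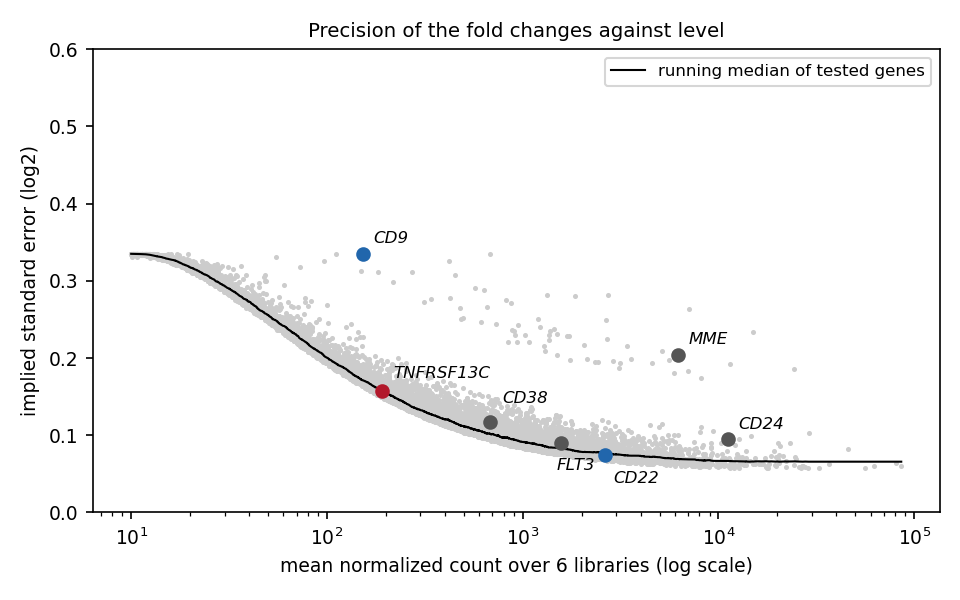
Standard error of the log2 fold change against the mean normalized count (log scale) for all 12061 tested genes (grey), with the 7 tested surface antigen genes in red (higher), blue (lower) or dark grey (not called) and the running median as a line. CD9 at 0.335 and MME at 0.205 stand well above the line, while TNFRSF13C, CD22, FLT3 and CD38 lie close to it.

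TNFRSF13C, the receptor through which the cytokine BAFF keeps maturing B cells alive, was the single called gene of the set that rose. Its implied level was 134 normalized counts in scramble and 251 in shSTAT3 cells. TNFRSF13C rose by 0.90 log2 units in the authors' deposited table (95% interval 0.59 to 1.21, adjusted p = 1.02e-07), and 97.7% of tested genes had a lower fold change. Its standard error of 0.158 was close to the 0.156 of genes of like mean. It lies on the minus strand of chromosome 22 from 41922023 to 41926818, and the microRNA gene MIR378I within it had a mean of only 2.47 in the authors' deposited table.

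**Figure D3:**
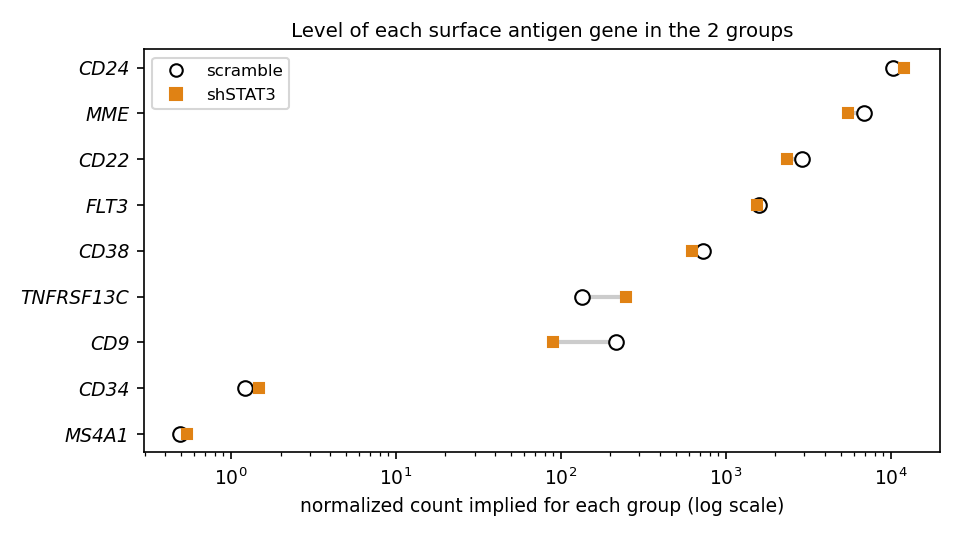
Normalized count implied for scramble (open circles) and shSTAT3 cells (orange squares) for each of the 9 genes on a log scale, from the deposited mean and fold change. The 2 groups are furthest apart for CD9 (215 against 90.4) and TNFRSF13C (134 against 251), and the genes span from about 0.5 for MS4A1 to 10387 and 12003 for CD24.

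Per kilobase of exon the order of the mean levels was CD24 (3675 normalized counts per kilobase), MME (890), CD22 (800), FLT3 (409), CD38 (120), CD9 (66.1) and TNFRSF13C (48.8). CD34 and MS4A1 stood at 0.147 each on the same scale. Exon lengths are those of GENCODE release 29, and the authors' annotation may differ. CD24 ranked above 99.1% of tested genes with a known length on this scale, and TNFRSF13C above 28.3%. MME and CD22 are neighbours in this order, and whether neighbours differ beyond the spread between libraries cannot be read from a table of means. The called changes of more than 1.5-fold, those of CD9 and TNFRSF13C, stood at the 2 lowest levels among the tested genes of the set.

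Promoters of the genes in RefSeq (GRCh38.p14, 250 bases before to 50 after a start) differed in base composition. The table of promoters used here has 15 entries for 7 of the 9 genes, and none for MS4A1 and TNFRSF13C. Some entries of MME, and some of CD24, overlap, so the 15 are not separate stretches and a match can count more than once. The STAT motif TTCNNNGAA, which reads the same on both strands, was in 0 of these 15 and in 7.66% of all 35116 promoters. The GC box GGGCGG, searched on both strands, was in 8 of the 15 and in 45.0% of all promoters. The 250 bases before a start are shown for the called genes with an entry, CD22 (chr19:35328937-35329186, plus strand) and, of the 4 starts of CD9, the one with the most GC boxes (chr12:6200150-6200399, plus strand), with GC boxes in capitals.
CD22: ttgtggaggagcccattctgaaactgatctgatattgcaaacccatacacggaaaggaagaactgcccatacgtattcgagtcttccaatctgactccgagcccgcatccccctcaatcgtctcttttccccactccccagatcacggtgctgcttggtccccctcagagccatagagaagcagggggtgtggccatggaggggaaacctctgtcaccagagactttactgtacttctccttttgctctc
CD9: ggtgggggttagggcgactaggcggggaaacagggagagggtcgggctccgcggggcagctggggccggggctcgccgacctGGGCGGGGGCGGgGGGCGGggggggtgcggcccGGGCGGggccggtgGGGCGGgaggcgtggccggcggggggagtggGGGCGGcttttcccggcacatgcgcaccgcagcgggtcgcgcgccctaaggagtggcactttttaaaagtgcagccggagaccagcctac
The CD22 stretch has no GC box and 52.8% G and C, and the CD9 stretch has 6 GC boxes and 76.8% G and C. The CD9 start was picked for its GC boxes, so this contrast follows in part from the choice. The entries of the other CD9 starts have 0, 3 and 0 GC boxes and 55.3%, 73.3% and 45.0% G and C. A match describes the letters and shows no binding, and no match says nothing of STAT3 elsewhere in the gene.

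Among other surface antigens of the B lineage most tested genes rose. Of 20 listed B-lineage antigens 11 were tested, and 7 rose (63.6%, against 21.3% of all tested genes) and 1 fell (9.09%, against 23.2%), with a median log2 fold change of 0.48. CD52, the target of alemtuzumab, rose by 1.40 log2 units and CD37, a leukocyte tetraspanin that is an antibody target, rose by 1.19 in the authors' deposited table (DESeq2 adjusted p = 3.59e-34 and 1.03e-10). The Fc receptor-like genes FCRLA and FCRL1 rose by 1.01 and 0.89, CD79A, which signals for the B-cell receptor, by 0.63, and CD74, the HLA class II invariant chain, by 0.48 in the authors' deposited table.

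Antigens used in diagnostic and residual disease panels had small changes in both directions. Of 24 listed, 18 were tested, 5 rose (27.8%, against 21.3% of all tested genes) and 4 fell (22.2%, against 23.2%), with a median of 0.11 and no called change of 1.5-fold. ITGA6, ICAM1 and CD58, 3 adhesion molecules, rose by 0.56, 0.54 and 0.52 log2 units, and the sialomucin gene SPN (CD43) rose by 0.28, in the authors' deposited table. The 4 lower genes, chosen for naming with their values known, were NRP1, a semaphorin co-receptor, ADGRE5 (CD97), an adhesion receptor, IGLL1, of the surrogate light chain, and IL7R, the interleukin 7 receptor, with log2 fold changes of −0.43, −0.29, −0.22 and −0.15 as the authors' deposited table gives them. Of 24 other surface targets of treatment in blood cancers, 15 were tested, 9 rose (60.0%) and 4 fell (26.7%), with a median of 0.31, CD37, CD52 and CD74 among those that rose. BSG, a chaperone of lactate transporters, and CSPG4, a proteoglycan, rose by 0.53 and 0.89 in the authors' deposited table. KIT, the stem cell factor receptor, fell by 1.38 in the authors' deposited table (DESeq2 adjusted p = 0.000166), with implied levels of 21.4 normalized counts in scramble and 8.22 in shSTAT3 cells. Without repeats these 3 lists hold 60 genes, of which 38 were tested, 17 rose (44.7%, against 21.3% of all tested genes) and 8 fell (21.1%, against 23.2%).

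**Figure D4:**
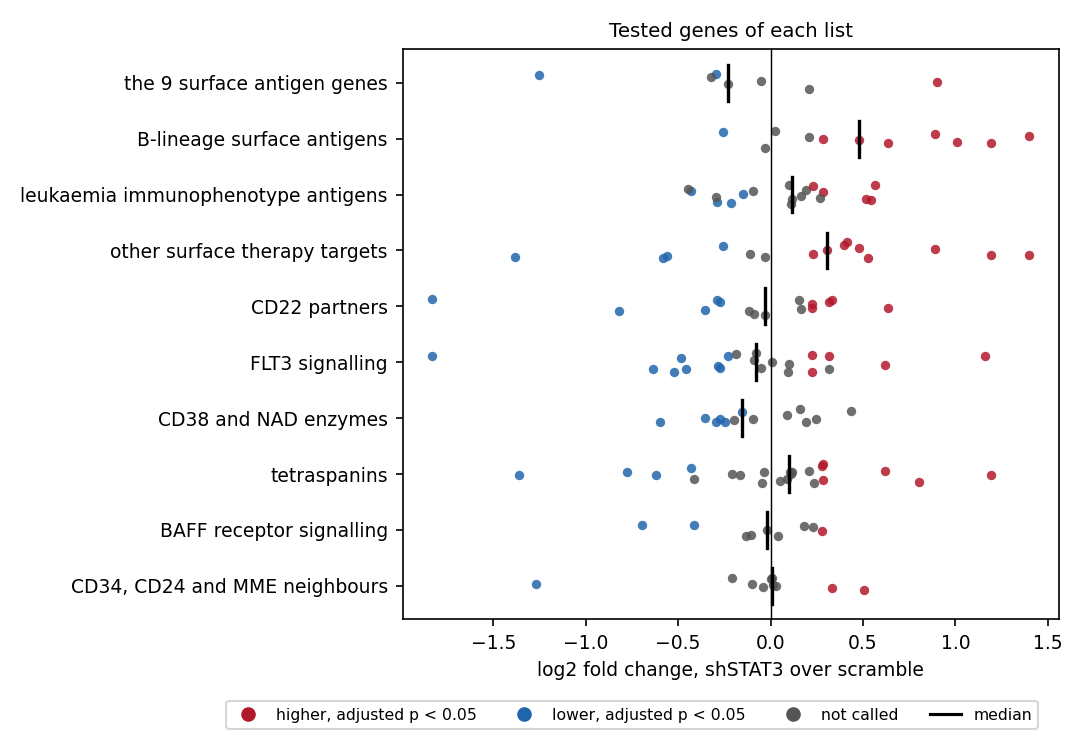
Log2 fold change, shSTAT3 over scramble, of each tested gene in the 9 surface antigen genes and in 9 lists of other antigens and partners, coloured by call, with the median of each list as a black bar; vertical scatter within a list has no meaning. The median is 0.48 for B-lineage surface antigens and −0.23 for the 9 genes.

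Of 15 tested genes of CD22 signalling and of its sugar ligand, 5 rose and 5 fell, 33.3% each, against 21.3% and 23.2% of all tested genes (median −0.03). LYN, the SRC-family kinase that phosphorylates CD22, fell by 1.83 log2 units in the authors' deposited table (DESeq2 adjusted p = 6.89e-30), with implied levels of 353 and 99.4 normalized counts in scramble and shSTAT3 cells. PTPN6, which encodes the phosphatase SHP-1 that CD22 recruits, fell by 0.35, and PLCG2, a phospholipase downstream of the B-cell receptor, fell by 0.29 in the authors' deposited table. CMAS, which activates sialic acid, fell by 0.82 and ST6GAL1, which attaches it in the linkage that CD22 binds, rose by 0.33 in the authors' deposited table (DESeq2 adjusted p = 3.19e-12 and 0.000121). CD79A, in this list too, is described above.

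Of 21 tested genes of FLT3 signalling 5 rose (23.8%, against 21.3% of all tested genes) and 8 fell (38.1%, against 23.2%), with a median of −0.08. The ligand gene FLT3LG was at 0.31 and not called in the authors' deposited table (DESeq2 adjusted p = 0.277). LYN and STAT5A, a transcription factor activated by FLT3, fell by 1.83 and 0.49 log2 units, while the adaptors GAB2 and GRB2 rose by 0.62 and 0.31, in the authors' deposited table.

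Of 13 tested genes listed around CD38, enzymes of NAD and of surface nucleotides, none rose (against 21.3% of all tested genes) and 6 fell (46.2%, against 23.2%), with a median of −0.15. PARP2, a DNA damage sensor, NAMPT, the rate-limiting enzyme of NAD salvage, SIRT1, a deacetylase, and QPRT, of synthesis from tryptophan, fell by 0.35, 0.30, 0.28 and 0.25 log2 units in the authors' deposited table. BST1, the gene closest in kind to CD38, had a mean of 2.14 and was not tested.

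Of 22 tested tetraspanins other than CD9 and their partners 6 rose and 4 fell (median 0.10), and the share called, 45.5%, is near the 44.5% of all tested genes. TSPAN9 and TSPAN14 rose by 0.80 and 0.62 and TSPAN5 fell by 0.78 log2 units in the authors' deposited table, and CD37 is described above. CD81, which joins CD9 in membrane complexes, was at 0.11 and not called (DESeq2 adjusted p = 0.228), as was the partner gene IGSF8 at 0.09 (DESeq2 adjusted p = 0.623), in the authors' deposited table. PTGFRN, another partner of CD9, had a mean of 1.40 and was not tested.

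Around TNFRSF13C, 9 genes of BAFF receptor signalling were tested, of which 1 rose and 2 fell (median −0.02), or 33.3% called against 44.5% of all tested genes. CHUK, the IKK-alpha kinase of the alternative NF-kB pathway, fell by 0.69 log2 units, the ubiquitin ligase gene BIRC2 fell by 0.41 and NFKB2, the precursor that CHUK acts on, rose by 0.28, in the authors' deposited table (DESeq2 adjusted p = 7.63e-08, 0.00232 and 0.012). The ligand gene TNFSF13B (BAFF) and the sister receptor TNFRSF13B (TACI) had means of 6.67 and 1.78 in the authors' deposited table and were not tested, and TNFRSF17 (BCMA) is listed at 0. Of 10 tested genes akin to CD34, CD24 and MME, 2 rose and 1 fell (median 0.0062), or 30.0% called against the same 44.5%. PODXL, a sialomucin related to CD34, and ECE1, a peptidase related to MME, rose by 0.33 and 0.51, and the peptidase gene ANPEP (CD13) fell by 1.27 log2 units, in the authors' deposited table. ANPEP had implied levels of 27.8 and 11.5 normalized counts in scramble and shSTAT3 cells.

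Surface antigens near 0 could be read library by library, since a low mean can be split into whole reads weighted by the size factors. The 20 genes among the 9 and the 3 surface lists with a mean above 0 and under 5.5 held 257 reads. These libraries carry no group label and are named a to f in the order of their size factors, from the highest. CD34 had 1, 2, 0, 0, 3 and 2 reads in libraries a to f, and MS4A1 had 0, 1, 0, 0, 0 and 2. Neither gene stood out in library a. CD44, a hyaluronan receptor chosen after its value was seen, had 27 of its 34 reads (79.4%) in library a and a fold change without a p-value in the authors' deposited table. The myeloid antigen CD33 and CEACAM6, likewise named after their values were seen, had 8 of 12 and 6 of 7 reads there. Over all 20 genes library a held 78 of the 257 reads (30.4%), of which 27 are of CD44. Its size factor of 1.13 is the highest of the 6, so part of that share goes with depth.

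**Figure D5:**
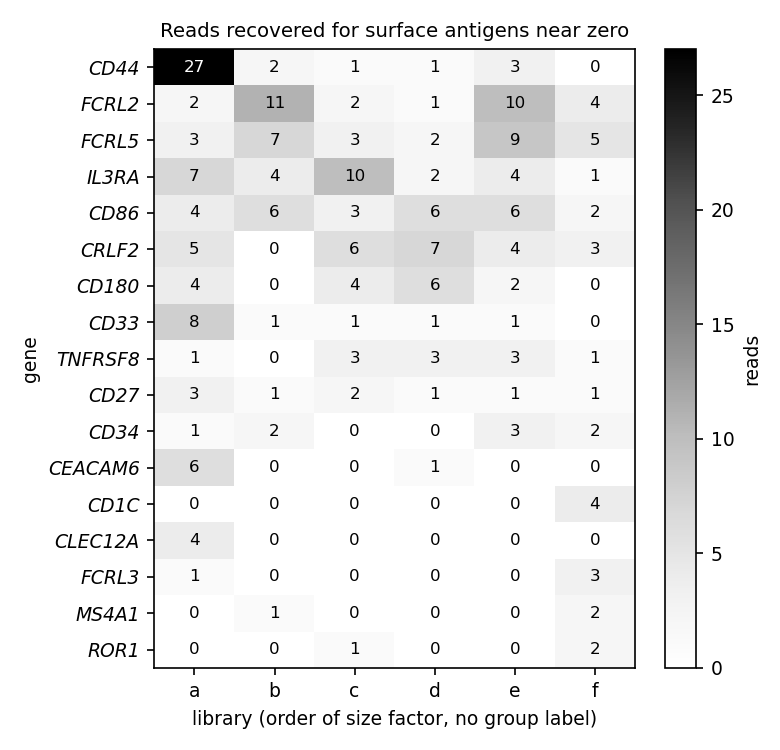
Reads per library for the 17 low surface antigen genes with at least 3 reads in all, with libraries a to f in columns in the order of their size factors and no group label, and darker cells for more reads. CD44 has 27 of 34 reads in library a, while the reads of CD34 and MS4A1 are scattered.

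CD9 is also carried by myeloid cells, platelets and stroma, and the markers of such cells are given beside its fall. Of 13 myeloid markers 5 were tested, ITGAM rose by 0.33 and CSF1R fell by 0.81 log2 units in the authors' deposited table, 3 lack a p-value, and none is listed at 0. The 13 summed to an implied 3654 normalized counts in scramble and 3361 in shSTAT3 cells, most of it MPO. MPO, a granule enzyme chosen after its value was seen, had a mean of 2330, a log2 fold change of −0.24 and a standard error of 0.195 in values drawn from the authors' deposited table (DESeq2 adjusted p = 0.33). Only 83 of all tested genes (0.688%) had a standard error of at least 1.5 times the running median, and CD9, MME and MPO were the 3 among all genes of the lists used here. None of 10 erythroid and megakaryocyte markers was tested, and 4, the platelet genes PF4 and PPBP among them, are listed at 0, and the rest summed to an implied 14.5 normalized counts in scramble and 9.92 in shSTAT3 cells. Of 13 stromal and epithelial markers 5 are listed at 0, and the others summed to 952 and 772, most of it PDGFRB (882 and 729). The part of other cells, or of library a, in the fall of CD9 was not tested, since the table has no value per library at the level of CD9.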

How the data were processed

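TruSeq RNA v2 libraries were made from 6 REH cultures, per the labels' protocols. Tools named, without settings, in the submitters' processing notes are DESeq2, featureCounts, Picard, Bowtie2, Trimmomatic and bcl2fastq 2.19, with the build hg38. The annotation, the model and the use of strand are not stated in those notes. A single comparison stands in the authors' deposited table. Its mean is a normalized signal (count over size factor, averaged over libraries by the authors), per the file headers. Its log2 fold change was computed by the authors, per the file headers, and very low genes lie near 0, as in a shrunken estimate. Its p-value and adjusted p-value are the authors', per the file headers, and match Benjamini-Hochberg over tested genes within 2.87e-07. Tested genes have a mean of at least 10.0.

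Standard errors (fold change over the normal quantile of p) and 95% intervals were computed with Python 3.11.15, numpy 2.4.6, pandas 2.3.3 and scipy 1.17.1, and apply to shrunken values. They depend on this shrinkage as well as on the spread between cultures, and are no plain measure of that spread. MS4A1, with 3 reads, has a standard error of 0.140, below the 0.158 of TNFRSF13C. Plots used matplotlib 3.10.9. Read recovery (tolerance 3e-09) and the adjustment were tested on simulated data. Lists are described by counts and medians, with no set test. Genes named are the 9, STAT3, up to 4 called genes with the smallest adjusted p per list, called surface antigens changed at least 1.5-fold and fixed partner genes. The 9 genes and the 16 lists were chosen with earlier results of these data known. Some genes of these lists are counted but not reported here by name. The plan's fit on values per library was not run, since the table has none. Alternatives were other thresholds, filters, adjustments and centrings.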

Additional observations from a re-analysis of the deposited data

How the results depend on the processing

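Over 8 alternatives, 52 of 56 values for the 7 tested genes stayed on their side of the threshold and none changed direction. Only the centrings alter the fold changes, so under the other alternatives no direction could change. Nor could a gene not called become called under the stricter threshold, the stricter adjustment or the demand for a 1.5-fold change. A called gene could not be lost at the looser threshold, so such values stayed on their side by construction. With an adjusted p under 0.1, the genes called higher went from 1 to 2 through CD24, and CD38 was called lower. With at least a 1.5-fold change asked for, the genes called lower went from 2 to 1 as CD22 no longer counted, and over all genes 839 were higher and 1252 lower instead of 2565 and 2804. CD38 was also called lower, at −0.29 with an adjusted p of 0.0341, once the running median of genes of like mean was removed, which moved CD24 from 0.21 to 0.11 (adjusted p from 0.0597 to 0.377). Over these alternatives the adjusted p of TNFRSF13C lay between 3.29e-08 and 1.02e-06, that of CD9 between 0.000574 and 0.0076, and that of CD22 between 0.000271 and 0.00309. No paired analysis was possible because the table has no value per library, and for the same reason leaving out replicates and refitting with other tools were not run. Depth limits CD34 and MS4A1, which have 8 and 3 reads.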

Other observations

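Markers of later B-cell stages and of cells outside the lineage gave few tested genes. Of 12 markers of mature B and plasma cells 5 were tested, and 3 fell and none rose (60.0% lower, against 23.2% of all tested genes). XBP1, a transcription factor of secretory cells, IRF4, which drives plasma cell formation, and SDC1, the plasma cell antigen CD138, fell by 0.84, 1.08 and 0.56 log2 units in the authors' deposited table, while CR2 and JCHAIN, named after their values were seen, are listed at 0. In the B-cell precursor list 2 of 12 tested genes rose (16.7%, against 21.3% of all tested genes) and 5 fell (41.7%, against 23.2%). PAX5, which holds B-cell identity, rose by 0.32 and CD79A by 0.63, and RAG2, of the recombinase, and DNTT, which adds bases at V(D)J junctions, fell by 0.52 and 0.23 log2 units in the authors' deposited table. Of 13 T and NK cell markers 1 was tested, CD4, which the authors' deposited table gives at 0.40 and which was not called (DESeq2 adjusted p = 0.311). Of 13 stromal and epithelial markers 2 were tested and both fell, COL1A1 by 0.75 and PDGFRB by 0.27 log2 units in the authors' deposited table, and 5 are listed at 0.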
